A study of Mus musculus with 6 samples.

Results

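Genes that mark the resident large macrophage of the mouse peritoneal cavity were followed across the 6 arrays of the series. There are 10 of them, Gata6, Timd4, Icam2, Selp, Tgfb2, Prg4, Vsig4, Garnl3, Cd5l and Lrg1, taken by name from a list rather than by their values, among 23185 genes that the table names. Each is read by 1 of its 25206 probe sets. The Tet2-/- group held 3 arrays and the wild-type group 3, each numbered replicates 4, 5 and 6. Macrophages were drawn from the peritoneal cavity of C57BL/6J Tet2-/- mice and of their wild-type littermates, 4 days after 1 mL of aged 4% thioglycollate, an irritant that recruits macrophages, was injected. All 6 preparations were plated in medium with serum, received no stimulus and gave total RNA 10 h later. The titles call the replicates biological. No source used here gives the age of the mice, how the Tet2 allele was made or how many animals went into a preparation.

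The peritoneal cavity at rest holds a large macrophage of early origin and a smaller one that derives from monocytes. Retinoic acid made in the surrounding tissue induces the zinc finger transcription factor Gata6 in the large macrophage, and Gata6 sets much of its gene programme. After an irritant such as thioglycollate, resident macrophages become hard to recover by lavage, and macrophages derived from recruited monocytes fill the cavity. Transcripts of the resident programme in an elicited preparation can therefore come from a mixed population. In such bulk RNA, fewer cells of a type and less RNA per cell cannot be told apart.

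The title and the genotype characteristic contradict each other for 4 of the 6 samples, and every group below is the one the title gives. The samples in conflict are Tet2-/- replicates 4 and 6 and wild-type replicates 5 and 6. The Tet2 probe set does not settle the labels: it read 3.80, 4.05 and 3.67 in Tet2-/- against 4.35, 3.74 and 3.79 in wild-type replicates 4, 5 and 6, a difference of -0.12 (limma adjusted p = 0.998), and no source used here says where its probes lie relative to the deletion. Values are log2 expression made with RMA, which corrects background, equalises the arrays and summarises probes, and array medians lay between 2.77 and 2.93. Tet2-/- replicate 6 stood apart, with the highest median, the narrowest interquartile range (2.99, against 3.16 to 3.33 on the other arrays) and the lowest mean correlation with the others (0.982, against 0.986 to 0.989). Results are therefore also given without it. As for the macrophage label, the 11 pan-macrophage genes measured, among them Csf1r, Cd68 and Adgre1, lay between 7.39 and 11.2 on every array, and the 9 T and NK cell genes between 0.82 and 2.91. Lists of other cells reached higher, up to 9.98 for fibroblast, 7.59 for B-cell, 7.19 for neutrophil and 6.53 for mesothelial genes. Fibroblast genes averaged 5.47 to 5.79 in Tet2-/- and 5.30 to 5.92 in wild-type. How pure the preparations were was not tested.

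Of the 10 identity genes, 8 had a higher mean in Tet2-/- than in wild-type macrophages, against 49.2% of all probe sets. None passed an adjusted p of 0.05 in the limma test over all probe sets, where 0% of probe sets did. The median difference over the 10 genes was 0.65 log2 units, against 0 over all probe sets. A difference of at least 0.5 was measured for 6 of them (1.13% of all probe sets). Timd4, Icam2 and Cd5l, 3 of the 10, had an unadjusted p under 0.05 and were higher in Tet2-/- (1.71% of all probe sets), and 0 were lower at that p (1.9% of all probe sets). The groups did not overlap for 1, Cd5l (3.33% of all probe sets did not overlap and were higher in Tet2-/-), and 0 of the 10 were lower without overlap (4.07% of all probe sets). With the genotype characteristic in place of the title, 4 of the 10 were higher and the median difference was -0.04, so the direction holds for the grouping by title only.

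**Figure D1:**
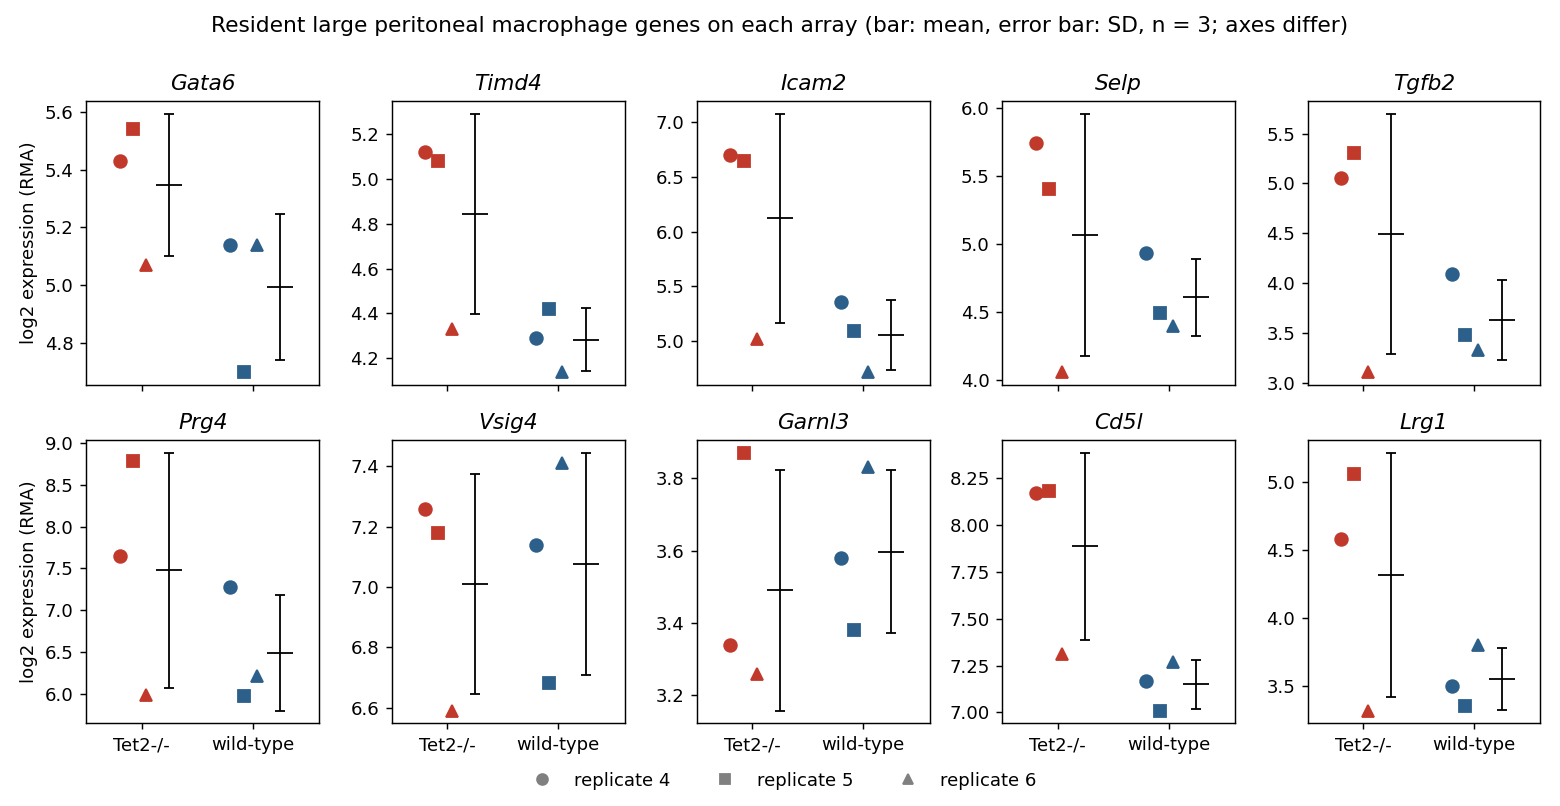
Log2 expression (RMA, vertical axes, which differ between panels) of the 10 identity genes on each array, Tet2-/- in red on the left and wild-type in blue on the right; symbols give the replicate number, and bars the mean ± SD (n = 3). For 8 genes Tet2-/- replicates 4 and 5 are the 2 highest arrays, while Tet2-/- replicate 6 lies within or near the wild-type values; Vsig4 and Garnl3 do not follow this.

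Gata6, the transcription factor that specifies the cell, read 5.43, 5.54 and 5.07 in Tet2-/- replicates 4, 5 and 6, against 5.14, 4.70 and 5.14 in wild-type replicates 4, 5 and 6. Tet2-/- replicates 4 and 5 were above every wild-type array, and replicate 6 lay among them. The means were 5.35 ± 0.246 in Tet2-/- and 4.99 ± 0.254 in wild-type (SD, n = 3 each), a difference of 0.35 with a 95% confidence interval of -0.06 to 0.76 (limma adjusted p = 0.998). Among the 10 genes it thus combined a small difference with a small spread, the SD over all 6 arrays being 0.296.

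Timd4 encodes a phosphatidylserine receptor with which macrophages bind dying cells. Its levels were 5.12, 5.08 and 4.33 in Tet2-/- replicates 4, 5 and 6 and 4.29, 4.42 and 4.14 in the wild-type ones, so replicate 6 lay among wild-type values while the other Tet2-/- arrays stood well above them. The difference was 0.56 (95% confidence interval 0.07 to 1.05, limma adjusted p = 0.998).

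Icam2, also known as CD102, is an adhesion molecule that binds leukocyte integrins and is used to sort large peritoneal macrophages. It read 6.70, 6.64 and 5.02 in Tet2-/- replicates 4, 5 and 6, against 5.36, 5.09 and 4.72 in wild-type. Replicate 6 again lay inside the wild-type range, and replicates 4 and 5 were more than 1 unit above it. Its difference, 1.06 (95% confidence interval 0.14 to 1.99, 2.09-fold), was the largest of the 10 and did not pass (limma adjusted p = 0.998).

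Selp encodes P-selectin, which tethers leukocytes and is otherwise known from endothelium and platelets. Its levels were 5.74, 5.40 and 4.06 in Tet2-/- replicates 4, 5 and 6 and 4.93, 4.49 and 4.40 in wild-type replicates 4, 5 and 6. The Tet2-/- arrays thus lay on both sides of all wild-type arrays, with a difference of 0.46 (95% confidence interval -0.40 to 1.32). Vsig4, a complement receptor that captures C3b-coated particles, behaved otherwise: it read 7.26, 7.18 and 6.59 in Tet2-/- against 7.14, 6.68 and 7.41 in wild-type. Its highest array was wild-type replicate 6, and the difference was -0.07 (95% confidence interval -0.60 to 0.46).

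The secreted products Tgfb2 and Prg4 showed the widest spread. For 9 of the 10 genes, all but Vsig4, the range within Tet2-/- exceeded that within wild-type, as it did for 62.8% of all probe sets. Tgfb2, a ligand of the TGF-beta family, read 5.06, 5.31 and 3.11 in Tet2-/- replicates 4, 5 and 6, against 4.09, 3.48 and 3.33 in wild-type. Its range within Tet2-/- was 2.20 log2 units, against 0.76 within wild-type, and its difference was 0.86 (95% confidence interval -0.29 to 2.01). Prg4 encodes lubricin, a lubricating proteoglycan also made by synovial and mesothelial cells. Its levels were 7.65, 8.79 and 5.99 in Tet2-/- replicates 4, 5 and 6 and 7.28, 5.98 and 6.22 in wild-type. This was the gene with the largest range, 2.80 within Tet2-/- and 1.30 within wild-type, and its difference of 0.98 had a 95% confidence interval of -0.42 to 2.39.

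Cd5l encodes a secreted scavenger receptor protein of tissue macrophages, also called AIM. It read 8.17, 8.18 and 7.31 in Tet2-/- replicates 4, 5 and 6, against 7.17, 7.01 and 7.27 in wild-type. Replicate 6 was 0.04 above the highest wild-type array, so the groups did not overlap by that margin alone (difference 0.74, 95% confidence interval 0.21 to 1.26, limma adjusted p = 0.998). Lrg1, a secreted leucine-rich glycoprotein that modulates TGF-beta signalling in mouse endothelium, had levels of 4.58, 5.06 and 3.32 in Tet2-/- and 3.50, 3.35 and 3.80 in wild-type. Here replicate 6 was the lowest of all arrays, and the difference was 0.77 (95% confidence interval -0.09 to 1.63). Garnl3, named for a GTPase-activating domain, read 3.34, 3.87 and 3.26 in Tet2-/- and 3.58, 3.38 and 3.83 in wild-type. Its groups overlapped fully, with a difference of -0.11 (95% confidence interval -0.55 to 0.34).

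Tet2-/- replicate 6 was the lowest Tet2-/- array for each of the 10 genes, so leaving it out had to raise every difference. The Tet2-/- group then held replicates 4 and 5 only. Icam2 then rose 3.06-fold (log2 difference 1.61, SE 0.187, limma adjusted p = 0.0323), passing the threshold as 0.0754% of all probe sets did. Cd5l at 1.03 (limma adjusted p = 0.0528), Tgfb2 at 1.55 (0.0605) and Lrg1 at 1.27 (0.0714) came close without passing. Timd4 at 0.82 (0.101), Selp at 0.96 (0.168), Prg4 at 1.73 (0.245) and Gata6 at 0.49 (0.424) did not pass either. Of the 10 genes, 8 had an unadjusted p under 0.05 and were higher in Tet2-/-, against 4.96% of all probe sets. The exceptions were Vsig4 at 0.14 and Garnl3 at 0.01. The median over the 10 genes was 0.99, against -0.03 over all probe sets.

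**Figure D2:**
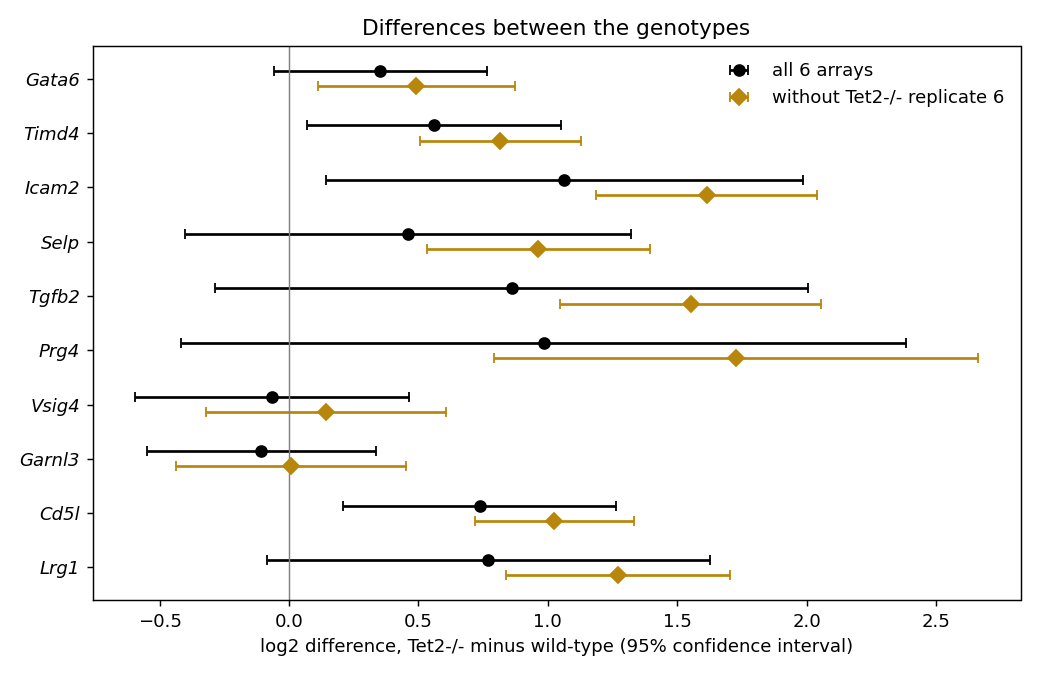
Log2 difference between Tet2-/- and wild-type means (horizontal axis, with 95% confidence intervals from limma) for each identity gene, over all 6 arrays (circles) and without Tet2-/- replicate 6 (diamonds). Without that array Icam2 lies at 1.61 and Tgfb2 at 1.55, while Vsig4 and Garnl3 stay near 0.

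Other single arrays mattered as well. Leaving out Tet2-/- replicate 5 put Prg4 at 0.33, Lrg1 at 0.40, Tgfb2 at 0.45 and Selp at 0.29. Without Tet2-/- replicate 4, Selp was at 0.12, and without wild-type replicate 5, Gata6 was at 0.21. Differences of Vsig4 and Garnl3 had either sign depending on the array left out. Weights estimated per array, 0.297 for Tet2-/- replicate 6 and 1.02 to 1.65 for the others, put Selp at 0.88, Tgfb2 at 1.38 and Prg4 at 1.48, and no identity gene passed with them.

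Across single arrays the genes moved largely as a block. Relative to each gene's 6-array mean, the 10 genes averaged 0.58, 0.78 and -0.52 in Tet2-/- replicates 4, 5 and 6 and -0.08, -0.47 and -0.30 in wild-type replicates 4, 5 and 6. Tet2-/- replicates 4 and 5 were the 2 highest arrays for 8 of the 10 genes, against 8.81% of all probe sets. This count was chosen after the values had been seen. Replicate 5 was the highest array for 6 genes (14% of all probe sets) and replicate 4 for Timd4, Icam2 and Selp (13.6%). Replicate 6 was the lowest of all 6 arrays for Selp, Tgfb2, Vsig4, Garnl3 and Lrg1 (20.5% of all probe sets). It lay at least 0.5 below the other Tet2-/- arrays for 8 genes, all but Gata6 and Garnl3, against 6.95% of all probe sets. The same profile remained after a further quantile normalization, with means of 0.54, 0.75 and -0.48 in Tet2-/- and -0.08, -0.44 and -0.29 in wild-type.

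**Figure D3:**
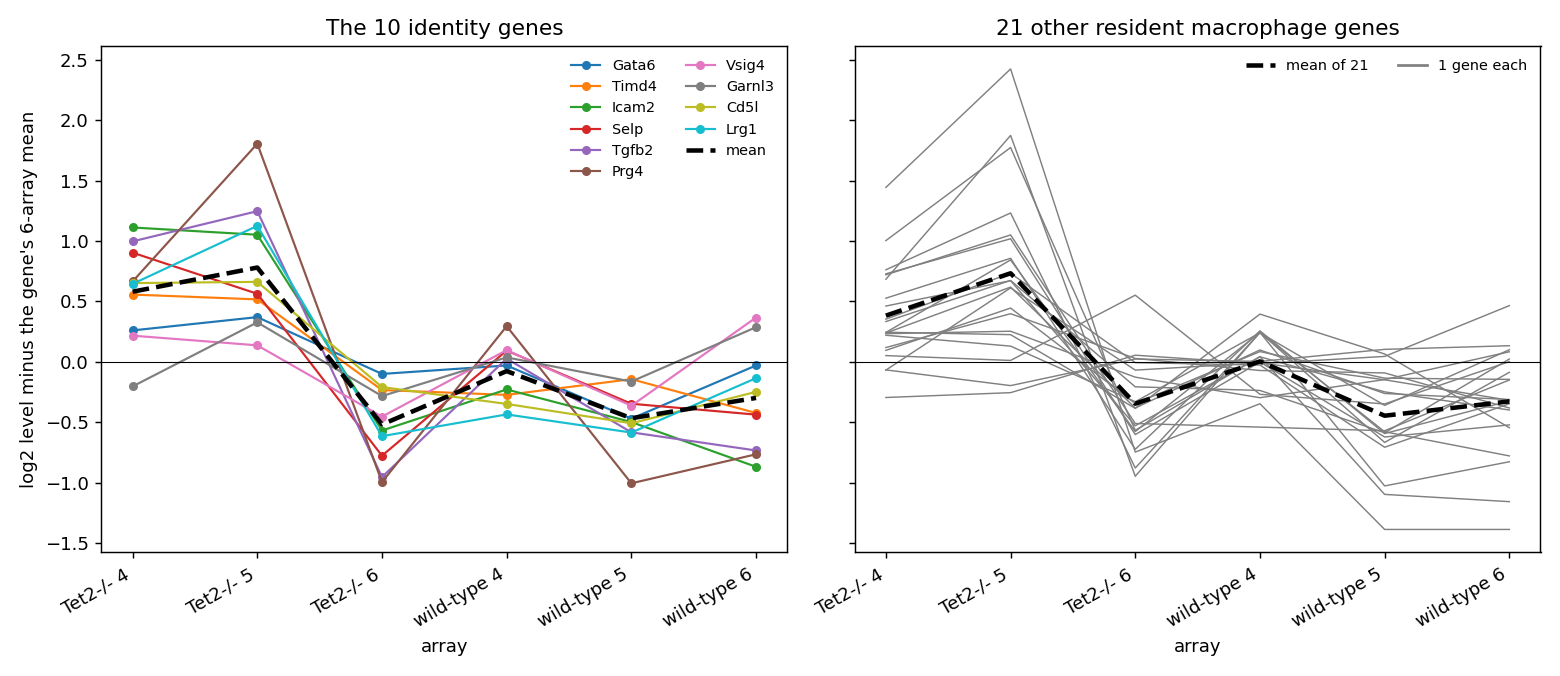
Log2 level minus the gene's own 6-array mean (vertical axis) on each array (horizontal axis, Tet2-/- left of wild-type) for the 10 identity genes (left) and for 21 other resident macrophage genes (right, 1 grey line each); dashed lines are the means. Both means are highest in Tet2-/- replicates 4 and 5, fall below 0 in replicate 6, and within wild-type are highest in replicate 4.

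All 45 pairs of identity genes had a Pearson r above 0 over the 6 arrays, with a median of 0.83 (0.02 to 0.98), and the median Spearman rho was 0.64. No pair passed after Benjamini-Hochberg adjustment over the 45 (exact permutation of 720 orders, two-sided, lowest adjusted p = 0.0781 for Pearson and 0.188 for Spearman). The relation was weaker without the farthest arrays, although leaving out a gene's extreme arrays tends to lower r in any case. Leaving out the 2 arrays farthest from the median of the first gene, which were Tet2-/- replicates 4 and 5 in 31 of the 45 pairs, gave a median r of 0.21 (-0.93 to 0.98), a description over 4 arrays. The arrays left out depend on which gene comes first. With Gata6 first they were Tet2-/- replicate 5 and wild-type replicate 5. Its r then ran from -0.24 with Garnl3 to 0.97 with Lrg1. Timd4 and Icam2, the pair with the highest r, were at 0.98 over all 6 arrays (Spearman 0.83, exact permutation, adjusted p = 0.0781). Without Tet2-/- replicates 4 and 5 this pair was at 0.58. Selp and Tgfb2 stayed at 0.98 without those arrays and were at 0.96 over all 6 (Spearman 0.94, exact permutation, adjusted p = 0.0781). Genes sharing an array share its RNA and its normalization, so these correlations describe the libraries.

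The values on the other 4 arrays differed between genes. Icam2, Selp, Tgfb2 and Prg4 had their highest wild-type level in replicate 4, 4 of 10 genes against 31.8% of all probe sets. For Selp, Tgfb2 and Prg4, Tet2-/- replicate 6 lay 0.55, 0.52 and 0.50 below the wild-type mean. For Timd4 and Cd5l it lay 0.05 and 0.16 above that mean, and for Gata6 0.08 above. Subtracting each genotype's mean left a median pairwise r of 0.81. Of the 45 pairs, 3 then had an adjusted p under 0.05 by the same permutation (Icam2 with Selp and Cd5l with Lrg1 at 0.0313, Icam2 with Tgfb2 at 0.0417). That permutation is not valid here, so nothing is drawn from these p-values. It shuffles values between the genotypes, although centring ties them within a genotype and the genotypes differ in spread.

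Other genes of the resident large macrophage were set beside them. Of 21 measured, 19 were higher and 2 lower in Tet2-/- by title (median 0.40). By limma's adjusted p, 0 of them passed (0% of all probe sets), and 6 were higher at an unadjusted p under 0.05 (1.71% of all probe sets). Alox15, a lipoxygenase, read 5.93, 6.91 and 3.74 in Tet2-/- replicates 4, 5 and 6, against 4.14, 3.10 and 3.10 in wild-type. Nt5e, the ectonucleotidase CD73, read 5.80, 6.57 and 4.23 against 4.84, 3.70 and 3.64. Both were highest in Tet2-/- replicates 4 and 5, as were 8 of the identity genes, and within wild-type both were highest in replicate 4. Tet2-/- replicate 6 lay above wild-type replicates 5 and 6 for both. Tet2-/- replicate 6 was the lowest Tet2-/- array for Alox15, so leaving it out had to raise the difference. Alox15 then passed (difference 2.97, limma adjusted p = 0.0394), as 0.0754% of all probe sets did. Marco, a scavenger receptor, read 5.57, 5.95 and 5.21 in Tet2-/- against 5.19, 4.51 and 4.87 in wild-type. Its groups did not overlap, though only by 5.21 against 5.19, and it was not alone in the list in this. Over all probe sets, 3.33% did not overlap and were higher in Tet2-/-. Of the 21 genes, 14 had Tet2-/- replicates 4 and 5 as the 2 highest arrays (8.81% of all probe sets). Replicate 4 was the highest wild-type array for 15 (31.8% of all probe sets). The list's array means were 0.38, 0.73 and -0.35 in Tet2-/- and 0.00, -0.45 and -0.33 in wild-type.

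Retinoid receptors and other transcription factors of these cells were spread less between arrays. Of these, 2 of 11 had Tet2-/- replicates 4 and 5 as the 2 highest arrays (8.81% of all probe sets). Replicate 4 was the highest wild-type array for 9 (31.8% of all probe sets). Of the 11 measured, 4 were higher and 7 lower in Tet2-/-, with a median difference of -0.05 and 0 passing. Rxra, the retinoid X receptor that large peritoneal macrophages need, read 5.69, 5.90 and 5.38 in Tet2-/- against 6.09, 5.71 and 5.77 in wild-type. Rarb, a retinoic acid receptor induced by its own ligand, differed by -0.05. It was dim, near the array medians, at 2.74, 2.69 and 2.51 in Tet2-/- against 3.06, 2.48 and 2.56 in wild-type. Maf, a macrophage transcription factor, read 7.40, 7.40 and 7.08 in Tet2-/- against 6.90, 6.62 and 6.92 in wild-type (difference 0.48, limma adjusted p = 0.998), and Klf2 differed by 0.36. The array means of the list ran from -0.14 to 0.10 in Tet2-/- and from -0.16 to 0.17 in wild-type.

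General macrophage genes moved with the identity genes in part. The 11 pan-macrophage genes averaged 0.17, 0.29 and -0.38 in Tet2-/- replicates 4, 5 and 6 and 0.12, -0.14 and -0.06 in wild-type. Of the 11, 9 were lowest in Tet2-/- replicate 6 (20.5% of all probe sets). Their mean log2 level per gene ranged from 8.70 to 9.37 in Tet2-/- and from 8.94 to 9.21 in wild-type, and their median difference was 0.04. Centring each array on these genes, a setting added after the values had been seen, kept 8 of the 10 identity genes higher in Tet2-/- (37.7% of all probe sets) and left a median difference of 0.60 (all probe sets -0.05). On that scale the groups did not overlap for Gata6, Timd4, Icam2 and Cd5l, 4 of 10. Of all probe sets, 1.34% did not overlap and were higher in Tet2-/-. Cd5l did not overlap before centring either. Because the pan-macrophage mean was lowest in Tet2-/- replicate 6, centring raised that array against the others for every gene. For Gata6 the margin was only -3.83 in Tet2-/- replicate 5 against -3.89 in wild-type replicate 6. Icam2 was then 2.55, 2.73 and 3.68 units below the pan-macrophage mean in Tet2-/- and 3.85, 3.85 and 4.31 units below it in wild-type. Differences on that scale were 1.01 for Icam2, 0.69 for Cd5l, 0.51 for Timd4 and 0.30 for Gata6, and none of the 10 passed (limma adjusted p = 0.999 for each).

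Genes of other macrophage states were set beside them. The small peritoneal macrophage and monocyte list had 11 of 15 members higher (median 0.23), with array means of 0.10, 0.47 and 0.02 in Tet2-/- and -0.09, -0.25 and -0.25 in wild-type. Ccr2, the chemokine receptor of inflammatory monocytes, differed by 1.38 (limma adjusted p = 0.665). Without Tet2-/- replicate 6, its lowest Tet2-/- array, it passed (1.69, limma adjusted p = 0.0227), as 0.0754% of all probe sets did. By contrast Mrc1 and Clec10a, lectins of monocyte-derived macrophages, differed by -0.59 and -0.92. Of 10 genes typical of thioglycollate-elicited macrophages, 8 were lower in Tet2-/- (median -0.21). Among these Itgax, the integrin CD11c, differed by -1.49 (limma adjusted p = 0.197; without Tet2-/- replicate 6 -1.54, limma adjusted p = 0.0323), Il7r by -0.37 and Lpl by -0.31. The array means of this list were -0.08, -0.16 and -0.09 in Tet2-/- and 0.13, 0.10 and 0.10 in wild-type. Itgax, with the largest difference of the list, weighed most on them. Tet2-/- replicate 6 lay below every wild-type array for Itgax, Il7r and Lpl and for some further genes of the list. For the rest of the list it lay among the wild-type arrays or above all of them.

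Several identity genes are also made by other cells of the cavity, and the lists for those cells are given for that reason. B-cell genes had the nearest array profile, averaging 0.30, 0.83 and -0.23 in Tet2-/- and -0.39, -0.31 and -0.20 in wild-type (10 of 11 higher, mean log2 level per gene 3.21 to 4.27 in Tet2-/- and 3.04 to 3.23 in wild-type). Cd79b, which signals for the antigen receptor, had a difference of 1.55. Its partner chain Cd79a passed without Tet2-/- replicate 6 (2.22, limma adjusted p = 0.0307), as 0.0754% of all probe sets did. That array was the lowest Tet2-/- one for Cd79a. Cd22, an inhibitory receptor, instead differed by -0.80. Replicate 4 was the highest wild-type array for 3 of the 11 B-cell genes and for 4 of the 10 identity genes. Both counts are near the share over all probe sets, 31.8%. The part of B cells in the result was not tested. The mesothelial list, relevant to Prg4, stood at 0.27, -0.07 and -0.27 in Tet2-/- and 0.07, -0.07 and 0.07 in wild-type (4 of 10 higher). The mesothelial mean was highest in Tet2-/- replicate 4, where Prg4 read 7.65, and stood at -0.07 in replicate 5, where Prg4 read 8.79. The part of mesothelial cells was not tested. Endothelial and platelet genes, relevant to Icam2 and Selp, averaged between 2.97 and 3.05 in Tet2-/- and between 2.91 and 3.04 in wild-type (5 of 11 higher), with Pecam1, also a leukocyte gene, at 0.73. Neutrophil, T and NK cell, and eosinophil and mast cell lists had median differences of 0.07, 0.03 and 0.01. In the last list Siglecf read 4.65, 3.58 and 4.12 in Tet2-/- against 5.37, 5.58 and 5.02 in wild-type. Its difference was -1.21 (limma adjusted p = 0.879), and 5 of the 10 genes of that list were higher. The Siglecf groups did not overlap, and 4.07% of all probe sets were lower in Tet2-/- without overlap. Of 8 fibroblast genes 6 were higher (median 0.19), the highest array being wild-type replicate 6.

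**Figure D4:**
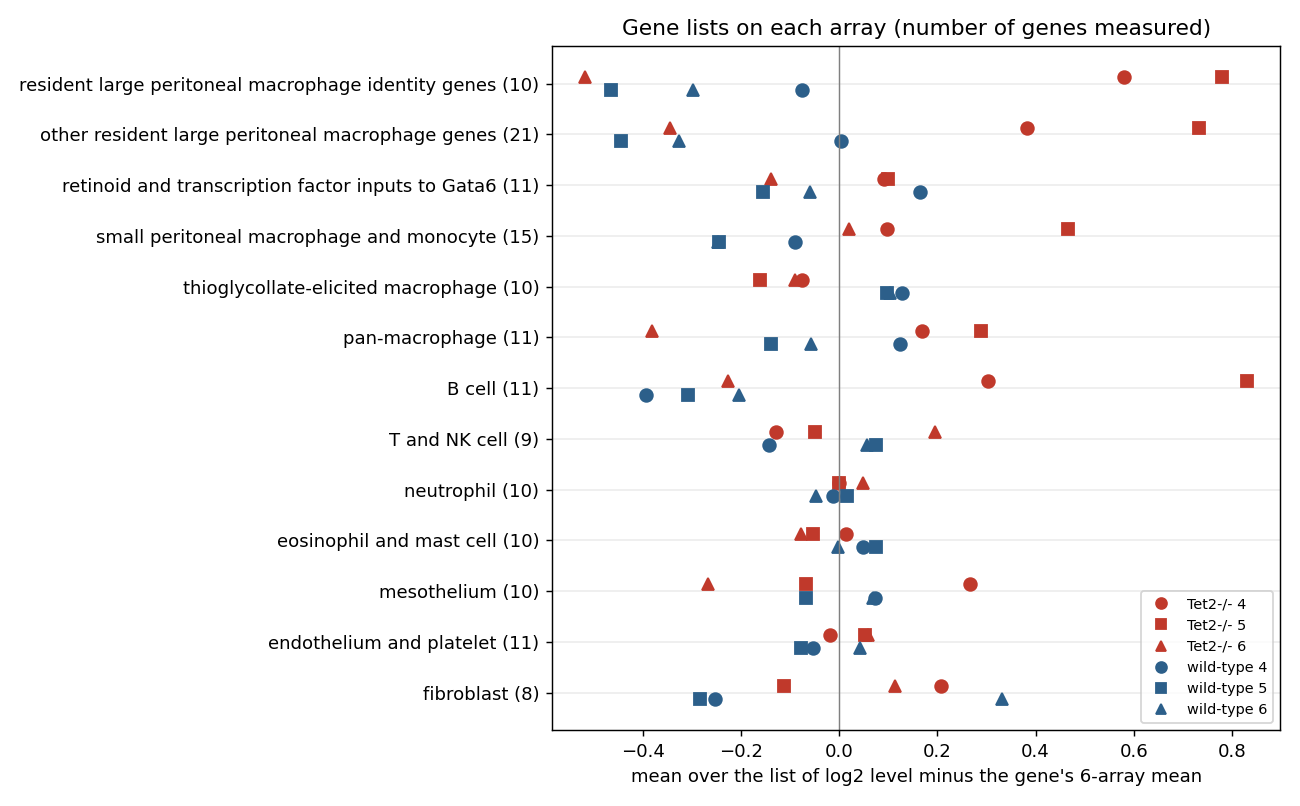
Mean over each gene list of the log2 level minus the gene's 6-array mean (horizontal axis), 1 symbol per array, Tet2-/- in red above wild-type in blue, with the number of genes measured in brackets. Tet2-/- replicates 4 and 5 lie above the other 4 arrays for the identity genes, the other resident macrophage genes and the B-cell genes. B-cell genes in Tet2-/- replicate 5 stand at 0.83. The same order holds, over a narrower spread, for the pan-macrophage list and the small macrophage and monocyte list. The mean of the elicited-macrophage genes, on which Itgax weighs most, lies lower on all 3 Tet2-/- arrays.

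Outside these lists, 544 named probe sets had an SD over the 6 arrays of at least 0.5, and 31 of them had a Pearson r above 0.95 with the mean profile of the 10 identity genes. The 8 most alike were Ly6e, Olr1, Fcmr, Stat4, Cfp, Top2a, Axl and Plxdc2, with r from 0.98 to 0.99 over the 6 arrays, a likeness that selection among many probe sets inflates. Ly6e, a Ly6 family surface protein, read 8.52, 8.54 and 7.14 in Tet2-/- against 7.72, 7.37 and 7.50 in wild-type. Plxdc2, a transmembrane protein, read 7.14, 7.42 and 5.03 in Tet2-/- against 5.63, 5.06 and 4.86 in wild-type. Both had Tet2-/- replicates 4 and 5 as its highest arrays.

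Promoter sequence was compared because 8 of the genes shared an array profile and Gata6 is known to act on this programme. RefSeq promoter windows (GRCm38.p6) were held for 7 of the 10 genes in 8 windows, Garnl3 having 2, and the 250 bases before the start of transcription were searched on both strands. Icam2, Prg4 and Gata6 were not used here. The letters searched were AGATAA and its variant TGATAA, the related AGATAG with its variant TGATAG (together the GATA hexamers), the nuclear receptor element AGGTCA and the PU.1-type Ets motif GAGGAA. No match overlapped another in these windows. A GATA hexamer occurred in 1 of 8 windows, that of Cd5l, against 26.5% of 32851 windows of all genes. AGGTCA, of the kind retinoid receptors bind, occurred in 2, Selp and Timd4 (14.02% of all windows), and GAGGAA in 3, Tgfb2, Cd5l and Vsig4 (23.3%). The windows of Cd5l (chr3:87357631-87357880, plus strand), Timd4 (chr11:46810549-46810798, plus strand), Selp (chr1:164115014-164115263, plus strand) and Tgfb2 (chr1:186705990-186706239, minus strand) are printed from 5′ to 3′ in the direction of transcription, because they hold these matches among genes with the shared profile, with the matches in capitals.
Cd5l: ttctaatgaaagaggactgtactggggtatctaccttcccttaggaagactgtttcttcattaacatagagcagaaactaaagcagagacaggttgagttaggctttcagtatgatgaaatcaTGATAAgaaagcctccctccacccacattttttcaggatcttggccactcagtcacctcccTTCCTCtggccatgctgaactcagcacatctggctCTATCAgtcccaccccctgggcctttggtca
Timd4: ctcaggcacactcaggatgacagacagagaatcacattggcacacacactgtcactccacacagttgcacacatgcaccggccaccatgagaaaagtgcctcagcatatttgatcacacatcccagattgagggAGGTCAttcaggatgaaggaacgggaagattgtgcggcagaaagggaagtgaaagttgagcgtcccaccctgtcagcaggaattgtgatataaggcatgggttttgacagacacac
Selp: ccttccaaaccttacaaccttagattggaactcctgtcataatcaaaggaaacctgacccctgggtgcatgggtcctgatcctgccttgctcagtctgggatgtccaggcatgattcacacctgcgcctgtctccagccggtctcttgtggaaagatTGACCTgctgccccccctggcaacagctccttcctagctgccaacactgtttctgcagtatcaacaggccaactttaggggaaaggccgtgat
Tgfb2: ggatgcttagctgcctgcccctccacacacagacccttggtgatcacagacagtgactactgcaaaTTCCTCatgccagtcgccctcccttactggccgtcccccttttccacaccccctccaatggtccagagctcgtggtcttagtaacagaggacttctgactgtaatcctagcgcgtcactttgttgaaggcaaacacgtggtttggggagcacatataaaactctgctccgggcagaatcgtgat
Counting back from the start of transcription, the GATA matches of Cd5l begin at positions -127 and -31 and GAGGAA, on the other strand, at -66. AGGTCA begins at -116 in Timd4 and, on the other strand, at -93 in Selp. GAGGAA begins at -184 in Tgfb2, on the other strand. No motif was held in common by the members with the shared profile, and Vsig4, which did not share it, also held GAGGAA. A match is a description of these letters, and their absence from a window of this length says nothing of binding elsewhere.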

How the data were processed

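RNA of 6 macrophage preparations was measured on Affymetrix whole-transcript arrays. The deposited values are log2 expression which the authors produced by RMA; the submitters' processing notes name affy 1.36.1; the log2 scale was read from the values and the method. No source used here says whether the 6 arrays were normalized together, and RMA understates differences of dim genes. Names came from the platform annotation (23185 of 25206 probe sets, all found by gene identifier in RefSeq, GRCm38.p6); several listed genes were not analysed here. Groups followed the sample titles. The test per gene was the moderated one of limma 3.58.1 under R 4.3.3, two-sided, with Benjamini-Hochberg adjustment over all 25206 probe sets; the code was tested on simulated data. Pairs of genes were tested by exact permutation over 720 orders in Python 3.11.15. The genes, the 13 lists, the motifs and the tests were chosen with earlier results of these data known. Named genes are the 10, up to 3 of each list by smallest p, Tet2 and the 8 most alike in profile; Rxra, Rarb, Cd79a and Cd68 were chosen for naming with their values in view. The number of arrays limits the precision. The other settings are given in the closing section.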

Additional observations from a re-analysis of the deposited data

How the results depend on the processing

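Grouping by the genotype characteristic gave 4 of the 10 genes higher and a median of -0.04. The differences then read -0.0867 for Gata6, -0.0333 for Timd4, -0.21 for Icam2, -0.15 for Selp, -0.0467 for Tgfb2, -0.0633 for Cd5l, 0.0933 for Vsig4 and 0.30 for Garnl3; the cause was not tested. Over the runs that leave out each array, the count of probe sets passing ran from 0 to 19, the count of identity genes higher from 8 to 10, their median difference from 0.36 to 0.99, and the median pairwise r from 0.73 to 0.87 (0 pairs passing in each). The 19 belong to the run that omits Tet2-/- replicate 6, and the run that omits wild-type replicate 4 had 1; array weights gave 2. Icam2 ranged from 0.77 to 1.61 and passed without Tet2-/- replicate 6 only (limma adjusted p = 0.0323). Vsig4 ranged from -0.27 to 0.14, with 0.14 when Tet2-/- replicate 6 was left out, 0.10 when wild-type replicate 6 was, and 0.0551 under array weights. Garnl3 ranged from -0.30 to 0.01, and was above 0 in the same 2 runs. Subtracting genotype means before correlating made 3 pairs pass, by a permutation that is not valid on centred values.

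Whether the replicate numbers pair the samples is not known. Deviations from the group means correlated at 0.15, -0.22 and 0.11 for numbers 4, 5 and 6. With 3 arrays a group these values cannot settle it. With the replicate number as a block, 0 probe sets passed, the median difference stayed 0.65 and Icam2 had a limma adjusted p of 0.715. Of the other comparisons between settings, 178 kept their direction and side of the threshold, among them all made with median-centred arrays, a further quantile normalization, an intensity trend with robust variances, the brighter probe sets and arrays centred on pan-macrophage genes. Signal over background could not be checked without scanner files, which were not used here.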
